A study of Mus musculus with 6 samples.

Results

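The D-type cyclins, their partner kinase CDK6 and the CDK inhibitors of the CIP/KIP and INK4 families were examined in Raw264.7 cells with or without knockdown of *Etv5*. The members were taken by gene symbol, which gave 10 of the 24786 symbols in the expression table. They are the cyclins *Ccnd1*, *Ccnd2* and *Ccnd3*, the kinase *Cdk6*, the CIP/KIP inhibitors *Cdkn1a* and *Cdkn1b*, and the INK4 inhibitors *Cdkn2a*, *Cdkn2b*, *Cdkn2c* and *Cdkn2d*.

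PolyA RNA was sequenced in 3 libraries of cells infected with a control lentivirus (sh-NC) and 3 libraries of cells infected with a lentivirus carrying an shRNA against *Etv5* (sh-*Etv5*), a transcription factor of the ETS family. Raw264.7 is a macrophage line from a mouse tumor induced by Abelson murine leukemia virus. All cells thus carried the tumor virus background and an shRNA lentivirus. For both groups the labels give strain C57BL/6 and post natal day 21. The study bought this line from ATCC and used C57BL/6 mice for other cells, so these labels may not describe the line. The labels name a Lipofectamine reagent at infection and readouts after 24 or 48 hours. The study describes puromycin selection and calls the sequenced cells stably transfected. Which of its shRNAs was sequenced is not given in the sources used here. Whether each library stands for an infection of its own is not stated either, so the p-values measure the spread between libraries, which may be technical. Because these are bulk samples, fewer cells expressing a gene and less RNA per cell cannot be told apart.

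D-type cyclins are made in response to growth factors, bind CDK4 or CDK6 and start the phosphorylation of RB, which releases E2F factors to switch on genes of S phase. INK4 proteins bind CDK4 and CDK6 and keep them from their cyclins, whereas CIP/KIP proteins act on assembled complexes, above all those of CDK2. In macrophages, cyclin D1 is a known target of the growth factor CSF-1, and p21 and p27 accompany the exit from the cycle when these cells differentiate or are activated.

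*Etv5* itself, on chromosome 16 from 22381309 to 22439719 (GRCm38), was at 9.18, 9.89 and 9.39 RPKM (reads per kilobase of gene, scaled to all mapped reads) in the sh-NC libraries. The sh-*Etv5* libraries held 5.19, 4.91 and 5.28 RPKM of it, a log2 difference of -0.78 (limma adjusted p = 2.74e-07). Of the 50-base stretches of its exons, 24.5% also occur in *Gm4798*, and the part of reads from that gene in the *Etv5* values was not tested. RPKM is a level per gene length, so levels of different genes can be set beside each other. Log2 differences here are sh-*Etv5* minus sh-NC on the log2(RPKM + 1) scale, which understates changes of low genes. The depth of the libraries is unknown, and the summed RPKM ranged from 320462 to 322949 in sh-NC and from 330454 to 340257 in sh-*Etv5*. The 10 most abundant symbols took 7.04 to 7.17% of that sum in sh-NC and 10.5 to 10.8% in sh-*Etv5*. Of 10 macrophage markers, 9 reached 1 RPKM in at least 1 library and *Mertk* did not. The summed level of the macrophage markers was 4456 to 4582 RPKM in sh-NC and 3553 to 3674 RPKM in sh-*Etv5*, but its members did not move together. *Lyz2*, which makes up most of the sum, was at 2810 to 2881 RPKM in sh-NC and 1981 to 2086 RPKM in sh-*Etv5*, and *Csf1r*, *Cd68* and *Fcgr1* were also lower in every knockdown library. *Itgam* was at 32.9 to 34.3 RPKM in sh-NC and 119 to 133 RPKM in sh-*Etv5*, and *Adgre1*, *Cd14*, *Spi1* and *Aif1* were also higher in every knockdown library. None of the 8 fibroblast markers reached 1 RPKM, although their sum was 0.0326 to 0.0789 in sh-NC and 0.838 to 1.11 in sh-*Etv5*. None of the 8 lymphocyte or 6 epithelial markers reached 1 RPKM, and *Krt8* and *Krt19* were listed at 0.

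Knockdown cells had more *Ccnd2*, *Cdkn1a*, *Cdkn2d*, *Cdkn1b* and *Cdk6*, and less *Cdkn2c* and *Ccnd1*, while *Ccnd3* did not pass the test. Genes with at least 1 RPKM in at least 3 of the 6 libraries were tested, and 8 of the 10 members were among them, each above 1 RPKM in all 6 libraries. *Cdkn2a* and *Cdkn2b* were below that level. By limma at an adjusted p under 0.05, 5 members had higher and 2 had lower levels after knockdown. Over all 10738 genes tested, 74.3% passed this test, 33.3% as higher and 41.0% as lower. In 7 of the 8 members the groups did not overlap, against 76.4% of all genes. The median log2 difference of the 8 members was 0.28, beside -0.05 over all genes, and their median absolute difference was 0.38 beside 0.31. With so large a share of all genes called, a call alone does not set a member apart, and the sizes of the changes are given below. The difference of *Cdkn2d* was larger in size than those of 60.5% of all genes tested. This share was 54.7% for *Ccnd1* and *Cdkn1b*, 35.4% for *Cdk6* and 10.9% for *Ccnd3*.

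**Figure D1:**
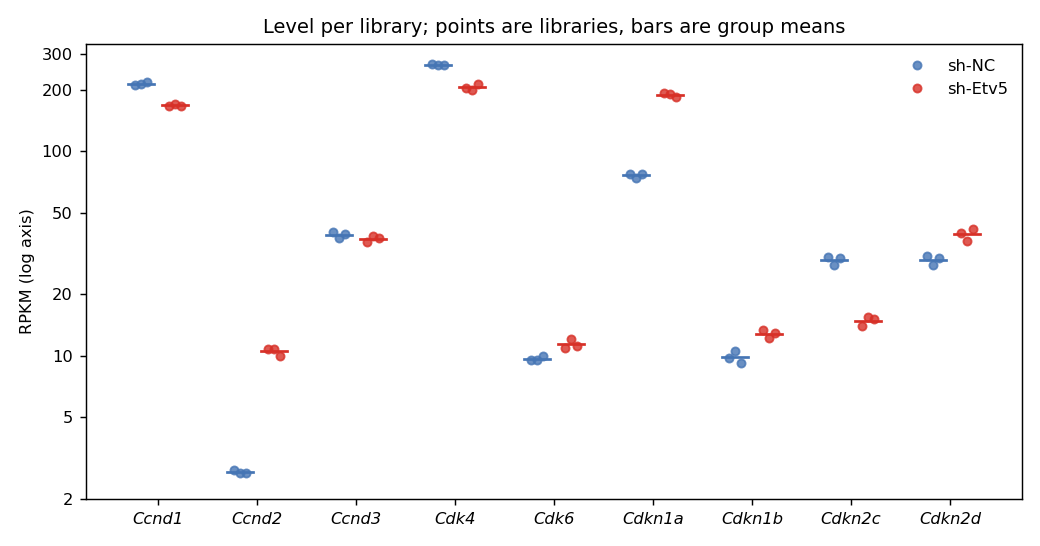
RPKM (log axis) of the 8 tested members and *Cdk4* in the 3 sh-NC (blue) and 3 sh-*Etv5* (red) libraries, with 1 point per library and a short line at each group mean. *Cdkn1a* and *Ccnd2* lie well above their sh-NC points in sh-*Etv5*, *Cdkn2c* lies below, and the points of *Ccnd3* overlap.

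In the plot of members by library, *Ccnd1* was the most abundant member in sh-NC, followed by *Cdkn1a* and *Ccnd3*. *Cdkn2d* and *Cdkn2c* came next with overlapping ranges, then *Cdkn1b* and *Cdk6*, which also overlapped, and *Ccnd2* was the lowest member tested. In sh-*Etv5* the order changed, with *Cdkn1a* above *Ccnd1*, then *Cdkn2d* and *Ccnd3* with overlapping ranges, and then *Cdkn2c*, *Cdkn1b*, *Cdk6* and *Ccnd2*, whose ranges did not overlap.

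*Ccnd1* encodes cyclin D1 and lies on the minus strand of chromosome 7 (144929931 to 144939925). It was at 210, 214 and 218 RPKM in sh-NC and at 167, 171 and 166 RPKM in sh-*Etv5*. All 3 knockdown libraries were below all control libraries. The mean was 214 ± 3.98 RPKM in sh-NC and 168 ± 2.74 RPKM in sh-*Etv5* (SD, n = 3 each). It fell by 21.7%, and the log2 difference was -0.35 (SE 0.0314, 95% interval -0.42 to -0.28, limma adjusted p = 1.50e-06). *Oraov1*, on the opposite strand, shares 23.4% of the exonic bases of *Ccnd1* and was at 30.0 ± 0.924 RPKM in sh-NC and 25.2 ± 1.12 RPKM in sh-*Etv5*. Whether the counting used strand is not given in the sources used here, and the part of *Oraov1* in the *Ccnd1* value was not tested.

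*Ccnd2*, the gene of cyclin D2, lies on the minus strand of chromosome 6 (127125162 to 127152193) and had the largest difference of the 8 members tested. Its level was 2.76, 2.66 and 2.68 RPKM in sh-NC against 10.8, 10.8 and 10.0 RPKM in sh-*Etv5*. The groups stood far apart, and the spread within each was small. The mean rose 3.91-fold, from 2.70 ± 0.0502 to 10.6 ± 0.455 RPKM (SD, n = 3 each), with a log2 difference of 1.64 (SE 0.0585, 95% interval 1.51 to 1.77, limma adjusted p = 8.65e-10). This difference was larger in size than those of 97.0% of all genes tested. Genes on the opposite strand share 7.9% of the exonic bases of *Ccnd2*, and their part in its values was not tested.

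*Ccnd3*, the gene of cyclin D3, lies on the plus strand of chromosome 17 (47505051 to 47599691). It was at 40.2, 37.5 and 39.6 RPKM in sh-NC and at 36.0, 38.6 and 37.6 RPKM in sh-*Etv5*. The groups overlapped. The means were 39.1 ± 1.40 and 37.4 ± 1.32 RPKM (SD, n = 3 each), and the log2 difference of -0.06 (SE 0.0423, 95% interval -0.16 to 0.03) did not pass the test (limma adjusted p = 0.199). When the libraries were rescaled to the same sum of RPKM, *Ccnd3* passed as lower, with a log2 difference of -0.12 (limma adjusted p = 0.0247).

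The 3 cyclins thus shifted unequally within the libraries. The summed level of the D-type cyclins was 253, 254 and 260 RPKM in sh-NC and 213, 220 and 213 RPKM in sh-*Etv5*, with no overlap. *Ccnd1* made up 83.0, 84.2 and 83.8% of this sum in sh-NC and 78.1, 77.6 and 77.6% in sh-*Etv5*. *Ccnd2* made up 1.09, 1.05 and 1.03% in sh-NC and 5.07, 4.91 and 4.70% in sh-*Etv5*. Cyclin D1 therefore remained the main D-type transcript in every library, although its share was lower in each knockdown library. The share of *Ccnd3* averaged 15.3% in sh-NC and 17.4% in sh-*Etv5*. Ratios within a library do not depend on the scaling of that library, and 5 were computed. None of them overlapped between the groups, but neither did 76.4% of all single genes tested. The 3 ratios among the cyclins share the same genes, so they restate the changes of *Ccnd1* and *Ccnd2* and are not separate results. The ratio of *Ccnd1* to *Ccnd2* was 79.2 in sh-NC and 15.9 in sh-*Etv5* (geometric means), a log2 difference of -2.32. For *Ccnd1* to *Ccnd3* the ratio was 5.47 and 4.48, and for *Ccnd2* to *Ccnd3* it was 0.0691 and 0.282. The exact permutation test gave p = 0.1 for each of the 5 ratios (two-sided, 0.1 after Benjamini-Hochberg adjustment), which is the smallest p that 3 against 3 libraries allow.

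**Figure D2:**
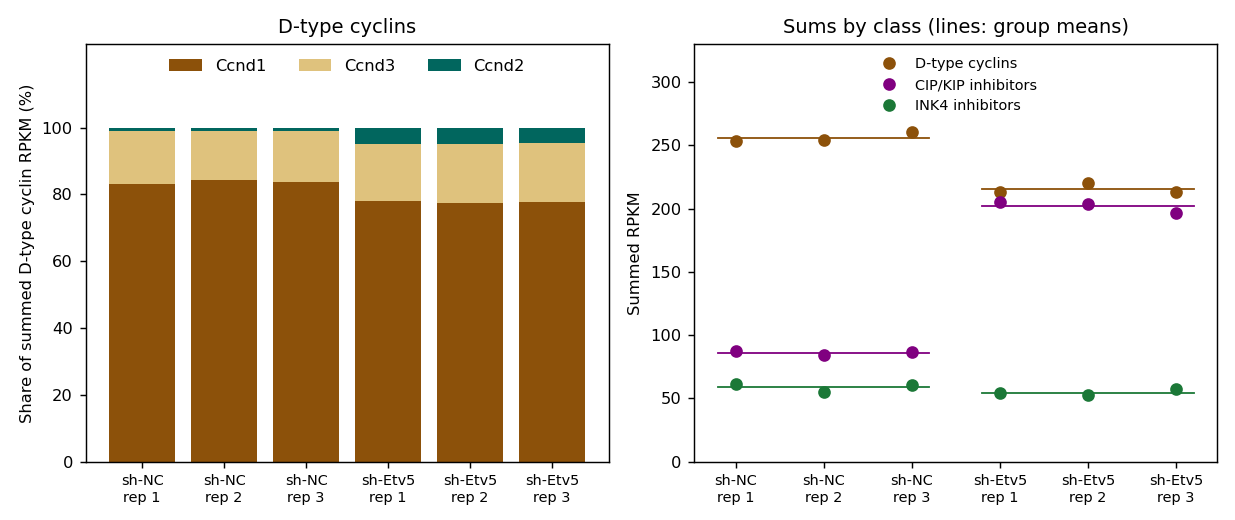
Left, share of *Ccnd1*, *Ccnd3* and *Ccnd2* in the summed D-type cyclin RPKM of each of the 6 libraries (stacked bars, %), and right, the summed RPKM of the D-type cyclins, CIP/KIP and INK4 inhibitors (points, with lines at group means). The share of *Ccnd2* is larger in sh-*Etv5*, the CIP/KIP sum was 84.4 to 87.2 RPKM in sh-NC and 197 to 205 RPKM in sh-*Etv5*, and the INK4 sums overlap.

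*Cdk6*, on the plus strand of chromosome 5 (3341485 to 3531008), encodes a kinase that D-type cyclins activate. Its level was 9.54, 9.59 and 9.98 RPKM in sh-NC and 10.9, 12.0 and 11.1 RPKM in sh-*Etv5*. The groups did not overlap, but they lay close together. The mean was 17.1% higher, with 9.70 ± 0.239 in sh-NC and 11.4 ± 0.599 RPKM in sh-*Etv5* (SD, n = 3 each), and the log2 difference was 0.21 (SE 0.0531, 95% interval 0.09 to 0.32, limma adjusted p = 0.00439). *Cdk4*, the other kinase of the D-type cyclins, was far more abundant and fell by 22.4%, from 265.3 ± 0.348 to 206 ± 7.58 RPKM (log2 difference -0.37, limma adjusted p = 2.12e-06). The ratio of *Cdk6* to *Cdk4* was 0.0366 in sh-NC and 0.0552 in sh-*Etv5* (geometric means), without overlap. *Tspan31*, on the opposite strand, shares 19.7% of the exonic bases of *Cdk4* and was higher after knockdown. It was at 37.9 ± 2.15 RPKM in sh-NC and 66.3 ± 3.70 RPKM in sh-*Etv5*. The use of strand in the counting is not given in the sources used here, and the part of *Tspan31* in the *Cdk4* value was not tested.

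*Cdkn1a*, the gene of p21, lies on the plus strand of chromosome 17 (29090976 to 29100727) and is a well-known target of p53. It was at 77.5, 73.8 and 77.8 RPKM in sh-NC and at 192, 191 and 184 RPKM in sh-*Etv5*. Every knockdown library was far above every control library. The mean rose 2.47-fold, from 76.4 ± 2.19 to 189 ± 4.55 RPKM (SD, n = 3 each), with a log2 difference of 1.30 (SE 0.0352, 95% interval 1.22 to 1.37, limma adjusted p = 1.07e-10). It was larger in size than the differences of 94.9% of all genes tested. A gene on the opposite strand shares 7.7% of the exonic bases of *Cdkn1a*, and its part in the values was not tested.

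The 250 bases before each RefSeq start of *Cdkn1a* are shown because it is the inhibitor with the largest change and its p53-type elements are textbook examples (RefSeq, GRCm38.p6, plus strand, 5′ to 3′). The window of the upstream start is chr17:29090729-29090978, and the capitals mark a pair of CATG cores spaced as in a p53 element (CATGNNNNNNCATG), a pattern searched for after the sequence was seen. The window of the downstream start is chr17:29093519-29093768, and the capitals mark 2 GC boxes (GGGCGG).
Cdkn1a upstream start: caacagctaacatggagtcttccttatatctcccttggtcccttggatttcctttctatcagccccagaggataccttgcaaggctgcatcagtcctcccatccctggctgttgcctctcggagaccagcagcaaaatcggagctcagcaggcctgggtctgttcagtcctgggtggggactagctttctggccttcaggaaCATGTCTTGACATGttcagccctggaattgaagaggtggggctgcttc
Cdkn1a downstream start: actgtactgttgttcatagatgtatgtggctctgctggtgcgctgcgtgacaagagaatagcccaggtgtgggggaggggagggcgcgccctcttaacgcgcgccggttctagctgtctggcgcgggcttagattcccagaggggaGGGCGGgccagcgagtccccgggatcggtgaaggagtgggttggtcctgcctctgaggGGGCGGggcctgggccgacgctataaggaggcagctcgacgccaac

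The paired CATG pattern of *Cdkn1a* began at position -48 from the start. Both strands were searched, and 0.490% of the 32851 windows of the same length in the RefSeq table hold it. It was in 1 of the 12 windows of the members, which was fixed in advance because the pattern was chosen after the *Cdkn1a* sequence was seen. Entries were matched for 8 of the 10 members; *Ccnd1* and *Ccnd2* were not matched. The ETS-type sequence CCGGAAG was found in 1 of the 12 windows, a later start of *Ccnd3*, against 6.91% of all windows. Other ETS-type sequences, such as the shorter GGAA, were not searched for. The E2F sites TTTCGCGC and TTTGGCGC were found in 0 of the 12 windows, against 0.654% of all. A match describes letters only, and no match says only that these letters are not in these windows.

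*Cdkn1b*, the gene of p27, lies on the plus strand of chromosome 6 (134920401 to 134925513). It was at 9.74, 10.5 and 9.26 RPKM in sh-NC and at 13.4, 12.2 and 12.9 RPKM in sh-*Etv5*, without overlap. The mean rose by 30.2%, from 9.85 ± 0.646 to 12.8 ± 0.561 RPKM (SD, n = 3 each), with a log2 difference of 0.35 (SE 0.0580, 95% interval 0.22 to 0.48, limma adjusted p = 0.000224). Both CIP/KIP members were therefore higher, and *Cdkn1a* by more. The ratio of *Cdkn1a* to *Cdkn1b* was 7.76 in sh-NC and 14.7 in sh-*Etv5* (geometric means), and *Cdkn1a* made up 88.6% and 93.6% of the CIP/KIP sum. For every 100 RPKM of D-type cyclins there were 34.5, 33.2 and 33.4 RPKM of CIP/KIP transcripts in sh-NC and 96.1, 92.6 and 92.2 RPKM in sh-*Etv5*.

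*Cdkn2c* and *Cdkn2d*, the genes of p18 and p19, were the INK4 members expressed in these cells, and they moved in opposite directions. *Cdkn2c*, on the minus strand of chromosome 4 (109660876 to 109667189), was at 30.6, 27.7 and 30.1 RPKM in sh-NC and at 13.9, 15.5 and 15.2 RPKM in sh-*Etv5*. *Cdkn2d*, on the minus strand of chromosome 9 (21288410 to 21291407), was at 30.8, 27.7 and 30.2 RPKM in sh-NC and at 40.0, 36.5 and 41.8 RPKM in sh-*Etv5*. Their levels were nearly the same in sh-NC and separated in sh-*Etv5*. *Cdkn2c* fell by 49.5%, with means of 29.4 ± 1.56 and 14.9 ± 0.815 RPKM (SD, n = 3 each), and had a log2 difference of -0.94 (SE 0.0537, 95% interval -1.06 to -0.82, limma adjusted p = 3.63e-08). That difference was larger in size than those of 89.5% of all genes tested. The mean of *Cdkn2d* rose by 33.5%, from 29.5 ± 1.65 to 39.4 ± 2.72 RPKM (SD, n = 3 each), with a log2 difference of 0.40 (SE 0.0565, 95% interval 0.28 to 0.53, limma adjusted p = 6.02e-05).

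The summed INK4 level was 61.3, 55.4 and 60.3 RPKM in sh-NC and 54.0, 52.4 and 57.2 RPKM in sh-*Etv5*, so the sums overlapped. Its makeup did not overlap. *Cdkn2c* was 49.8, 49.9 and 49.9% of the INK4 sum in sh-NC and 25.8, 29.5 and 26.6% in sh-*Etv5*.

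The windows before the first RefSeq start of *Cdkn2c* (chr4:109666757-109667006) and of *Cdkn2d* (chr9:21291210-21291459) are shown since these related genes began at like levels and moved apart (RefSeq, GRCm38.p6, minus strand, 5′ to 3′). The GENCODE coordinates given above place earlier starts, at 109667189 for *Cdkn2c* and 21291407 for *Cdkn2d*. By these, the *Cdkn2c* window lies within the gene and the *Cdkn2d* window lies partly within it. Capitals mark GC boxes (GGGCGG, or CCGCCC on the other strand) and a CCAAT box on the other strand (ATTGG).
Cdkn2c: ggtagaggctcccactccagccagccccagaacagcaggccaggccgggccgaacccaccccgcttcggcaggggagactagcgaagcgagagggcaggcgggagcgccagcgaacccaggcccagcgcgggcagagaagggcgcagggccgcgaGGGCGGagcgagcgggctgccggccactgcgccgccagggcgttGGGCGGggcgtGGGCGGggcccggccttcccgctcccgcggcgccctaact
Cdkn2d: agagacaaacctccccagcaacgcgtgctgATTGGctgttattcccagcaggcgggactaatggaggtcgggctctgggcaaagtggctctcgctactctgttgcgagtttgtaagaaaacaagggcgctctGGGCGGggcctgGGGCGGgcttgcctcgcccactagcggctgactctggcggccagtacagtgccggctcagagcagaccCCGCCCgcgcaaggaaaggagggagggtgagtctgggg

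Each of these windows holds 3 GC boxes, and that of *Cdkn2d* also holds 1 CCAAT box. GC boxes occur in 32.7% and CCAAT boxes in 33.8% of all windows of this length.

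*Cdkn2a*, the gene of p16 and ARF, lies on the minus strand of chromosome 4 (89274471 to 89294653) and was at 0, 0.0427 and 0 RPKM in sh-NC and at 0, 0.399 and 0.142 RPKM in sh-*Etv5*. *Cdkn2b*, the gene of p15, lies beside it (89306299 to 89311039) and was listed at 0 in all 6 libraries. The *Cdkn2a* groups overlapped, and without a filter its log2 difference was 0.21 (95% interval -0.15 to 0.56, limma adjusted p = 0.401). With the depth unknown, no floor can be given for a value listed at 0. *Mtap*, on the far side of *Cdkn2a* (89137122 to 89181081), was read in every library, at 30.4, 32.6 and 32.2 RPKM in sh-NC and 21.2, 24.2 and 26.1 RPKM in sh-*Etv5*. *Dmrta1*, on the far side of *Cdkn2b* (89679436 to 89694772), was also listed at 0 in all 6 libraries.

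**Figure D3:**
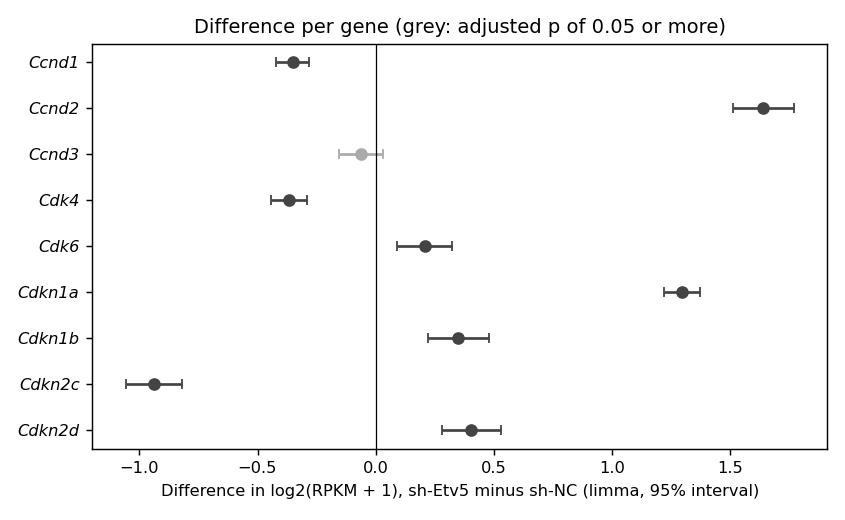
Log2 difference of each tested member and *Cdk4* (sh-*Etv5* minus sh-NC, log2(RPKM + 1) scale) with its 95% interval from limma. Only the interval of *Ccnd3* includes 0, and *Ccnd2* and *Cdkn1a* lie beyond 1.

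In the plot of log2 differences, *Ccnd2*, *Cdkn1a* and *Cdkn2c* were the 3 members with differences beyond 0.5 in size, whereas those of the other 5 were smaller. For these 3 members, the genes with the most similar pattern over the 6 libraries were found by the root mean square difference of centred log2(RPKM + 1) values. As the libraries form only the sh-NC and sh-*Etv5* groups, nearness here mostly means a similar log2 difference. Shared regulation was not tested. *Slc40a1*, the iron exporter ferroportin (0.0224), and *Rusc2* (0.0407) were nearest to *Ccnd2*. *Slc40a1* was at 0.650 RPKM in sh-NC and 4.11 RPKM in sh-*Etv5*, so it passed the filter only through sh-*Etv5*, and its likeness to *Ccnd2* (2.70 and 10.6 RPKM) holds on the log2(RPKM + 1) scale and not for the fold of RPKM. *Junb*, an AP-1 subunit (0.0189), and *Ell2*, an elongation factor of RNA polymerase II (0.0312), were nearest to *Cdkn1a*, and *Junb* was at 76.3 RPKM in sh-NC and 185 RPKM in sh-*Etv5*. *Daglb*, a diacylglycerol lipase (0.0220), and *Rnf219* (0.0229) were nearest to *Cdkn2c*. *Daglb* shares 24.1% of its exonic bases with *Rac1* on the opposite strand.

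Genes of the same pathway were taken from 8 lists, with some genes in more than 1 list. Of 149 genes, 138 were tested, and 33 were higher, 77 lower and 28 not called, beside 33.3% higher and 41.0% lower over all genes. The median log2 difference of the 138 genes was -0.32. These shares over all genes are also the ones to set beside the counts of each list below.

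Among the CDK and cyclin partners, 12 of 16 tested genes were lower and 0 were higher by limma, also at an unadjusted p under 0.05, where the count was 0. The cyclins of G2 and mitosis moved most: *Ccnb2* fell from 68.1 to 26.7 RPKM (log2 difference -1.32), *Ccna2* from 72.2 to 28.7 RPKM (-1.30) and *Ccnb1* from 67.5 to 27.8 RPKM (-1.25). *Ccna2* shares 12.5% of its exonic bases with *Exosc9* on the opposite strand. *Ccne1*, the gene of cyclin E1, a partner of CDK2 that acts after the D-type cyclins, was at 18.0 ± 0.747 RPKM in sh-NC and 18.2 ± 1.17 RPKM in sh-*Etv5* and did not pass. *Ccne2*, the gene of cyclin E2, fell from 10.1 ± 0.425 to 6.21 ± 0.110 RPKM.

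Of 13 genes of the RB and E2F family, 9 were lower and 0 were higher by limma, and at an unadjusted p under 0.05 the counts were 10 and 0. *E2f8*, a repressor of the family, fell from 18.7 to 7.64 RPKM (log2 difference -1.19), and it shares 11.2% of its exonic bases with *Gm2788* on the opposite strand. The partners of E2F proteins were lower too, *Tfdp2* from 2.64 to 1.03 RPKM (-0.85) and *Tfdp1* from 88.9 to 51.3 RPKM (-0.78). *Rb1*, the target of the D-type kinases, was at 3.59 and 3.53 RPKM and did not pass (limma adjusted p = 0.823). It shares 14.9% of its exonic bases with *Lpar6* and *Rcbtb2* on the opposite strand.

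Of 22 E2F-driven genes of S phase, 21 were lower, with a median log2 difference of -0.64, and the remaining gene was *Ccne1*. *Tk1*, a thymidine kinase, fell from 81.0 to 31.6 RPKM (log2 difference -1.33) and *Uhrf1*, which keeps DNA methylation through replication, from 75.0 to 36.6 RPKM (-1.02). All 20 markers of G2 and mitosis in the list were lower, with log2 differences from -1.64 to -0.52 and a median of -1.26. *Cenpa*, the histone of centromeres, was at 89.0 and 27.9 RPKM, *Mki67* (the proliferation antigen Ki-67) at 74.3 and 23.2 RPKM, and *Birc5* (survivin) at 28.2 and 8.52 RPKM in sh-NC and sh-*Etv5*. In the same libraries *Ccnd1*, *Cdkn2c* and the summed D-type cyclin level (256 ± 4.02 RPKM in sh-NC and 216 ± 3.95 RPKM in sh-*Etv5*) were also lower, whereas *Ccnd2* was higher.

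**Figure D4:**
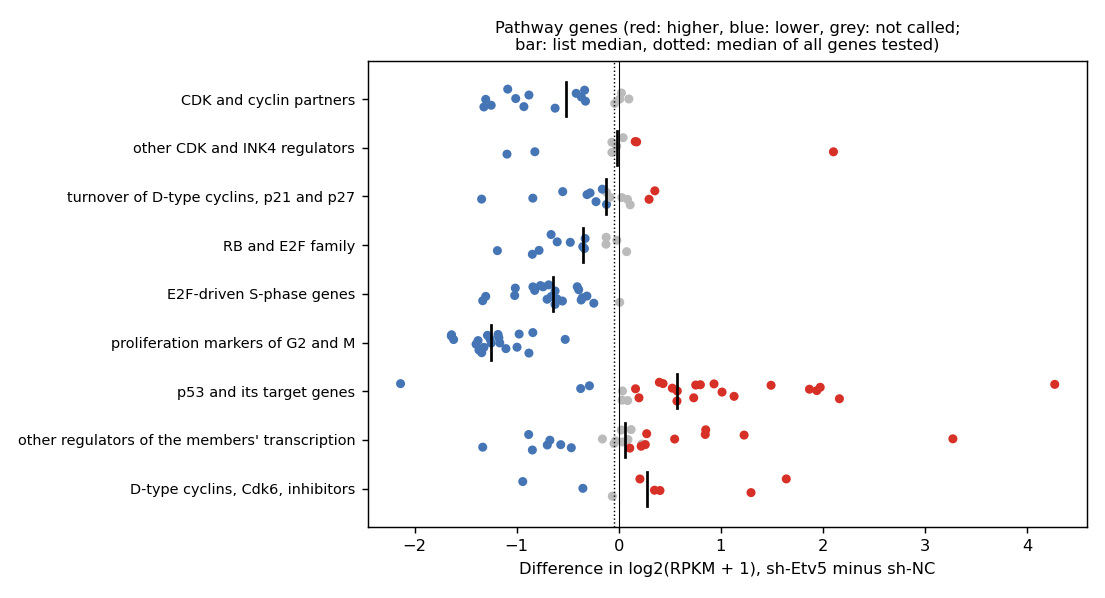
Log2 difference (sh-*Etv5* minus sh-NC, log2(RPKM + 1) scale) of every tested gene in each pathway list and of the tested members (1 point per gene, red higher, blue lower, grey not called; bar, list median; dotted line, median of all genes). The medians run from -1.26 for the markers of G2 and mitosis to 0.57 for p53 and its targets.

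The plot of the pathway lists shows the median of the list of p53 and its targets on the other side of 0. Of 25 genes tested, 19 were higher, 3 were lower and 3 did not pass, and the median log2 difference was 0.57. *Plk2*, a stress-induced kinase, rose from 4.79 ± 0.401 to 111 ± 3.01 RPKM (log2 difference 4.27), and *Mdm2*, the ubiquitin ligase of p53, from 22.4 ± 0.843 to 64.7 ± 1.67 RPKM (1.49). The death receptor *Fas* rose from 0.315 to 4.87 RPKM (2.16) and passed the filter only through sh-*Etv5*. The sestrins moved in opposite directions, as *Sesn2* rose from 5.97 to 24.4 RPKM (1.87) and *Sesn1* fell from 21.1 to 4.02 RPKM (-2.14). *Trp53*, the gene of p53, fell from 115 ± 1.03 to 88.8 ± 2.93 RPKM (-0.37), and *Ei24* was the other gene of this list that was lower. *Sesn2* and *Tnfrsf10b* of this list are also known as targets of the endoplasmic reticulum stress factors ATF4 and CHOP. The part of p53 in the changes of *Cdkn1a* and of the genes of this list was not tested.

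Of 15 genes that act on the turnover of D-type cyclins, p21 and p27, 8 were lower and 2 (*Fbxo4* and *Gsk3b*) were higher. *Skp2*, the subunit that brings p27 and p21 to the SCF ubiquitin ligase, fell from 17.1 ± 0.668 to 6.13 ± 0.208 RPKM (log2 difference -1.34). Its cofactor *Cks1b* fell from 170 to 94.4 RPKM (-0.84), and *Dtl*, which directs p21 to another ligase in S phase, from 16.4 to 10.9 RPKM (-0.55). Protein levels were not measured in these libraries.

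The 9 other CDK and INK4 regulators tested held 3 higher and 2 lower genes, beside 33.3% higher and 41.0% lower over all genes. *Cdk2ap2* rose from 19.9 ± 1.26 to 88.8 ± 1.21 RPKM (log2 difference 2.10), while its relative *Cdk2ap1* fell from 155 to 87.5 RPKM (-0.82) and *Cdkn3*, a phosphatase of CDKs, from 19.7 to 8.67 RPKM (-1.09). Of 24 other regulators of the members' transcription, 9 were higher, 7 were lower and 8 did not pass. Beside the same shares over all genes, these counts do not set the list apart. *Myc*, whose protein is known to repress *Cdkn1a* and to activate *Ccnd2*, rose from 0.341 ± 0.0394 to 12.0 ± 0.194 RPKM (3.27) and passed the filter only through sh-*Etv5*. *Mycn*, its relative, was far more abundant and fell from 370 ± 6.43 to 205 ± 9.74 RPKM (-0.85). *Klf6*, a zinc finger factor known to activate *Cdkn1a*, rose from 15.4 to 37.5 RPKM (1.23), and *Cebpa*, a myeloid factor, fell from 17.3 to 6.29 RPKM (-1.33). The part of these genes in the members' changes was not tested.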

How the data were processed

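The authors deposited RPKM values for 24786 gene symbols in 6 libraries, made from coverage tracks, with build mm10 per the submitters' processing notes. The aligner, annotation and use of strand are not given in the sources used here. RPKM already holds length and total-read scaling, so a few abundant genes can shift the rest, and depth is unknown.

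Genes that reached 1 RPKM in 3 or more of 6 libraries were compared on log2(RPKM + 1) in R 4.3.3 by limma 3.58.1 (two-sided, eBayes with trend), with Benjamini-Hochberg adjusted p under 0.05 over all genes as the call. The step was tested on simulated data. Ratios within a library were compared by an exact permutation test. Coordinates came from GENCODE on GRCm38 and promoter windows from RefSeq (GRCm38.p6), with Python 3.11.15, pandas 2.3.3, NumPy 2.4.6 and SciPy 1.17.1, and matplotlib 3.10.9 drew the plots.

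The members and lists were chosen with earlier results of these data known. The text names the members, *Etv5*, *Cdk4*, the 3 largest changes of each list among called genes whose groups do not overlap, and the 2 nearest patterns of the 3 members that changed most. *Mtap*, *Dmrta1*, *Oraov1*, *Tspan31*, *Rac1*, *Exosc9*, *Gm2788*, *Gm4798*, *Lpar6*, *Rcbtb2*, *Mdm2*, *Trp53*, *Ei24*, *Sesn2*, *Tnfrsf10b*, *Ccne1*, *Ccne2*, *Rb1*, *Mycn*, *Fbxo4* and *Gsk3b* were named after their values were seen. Alternatives were a pseudocount of 0.1 or 0.01, no filter, a mean of at least 5 RPKM, quantile normalization, rescaling to the same sum, no trend in eBayes, a replicate block, minimum log2 differences of 0.5 and 1, a pseudocount of 1 in the ratios, and each library left out in turn.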

Additional observations from a re-analysis of the deposited data

How the results depend on the processing

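The 5 higher and 2 lower calls among the members held in number with each library left out in turn and under a block for the replicate number. Libraries of the same number did not deviate together more than others (correlations of 0.07, -0.07 and -0.04, against -0.07 to 0.11 for different numbers). Deviations from means of 3 libraries cannot show whether libraries of the same number share an infection or a day. With the replicate block, limma called 5 members higher and 2 lower, 33 and 78 pathway genes, and 3539 and 4361 of all genes. When libraries were rescaled to the same sum, *Ccnd3* passed as lower (log2 difference -0.12), so that 3 members were lower, and the median of all genes moved from -0.05 to -0.10. A minimum log2 difference of 0.5 left 2 members higher and 1 lower, 21 pathway genes higher and 55 lower, and 1711 higher and 1611 lower of all genes. A minimum of 1 left 2 members higher and 0 lower, 11 pathway genes higher and 26 lower, and 669 and 322 of all genes. These minimums lower counts by construction. Depth is unknown, so no counting error can be given, and the zero values of *Cdkn2a* and *Cdkn2b* have no stated floor.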
